A study of Mus musculus with 18 samples.

Results

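The comparison described here asks where a mix of reprogramming compounds changed RNA levels differently in leukemia cells and in normal blood progenitors. For each gene the quantity is the difference (AML compound minus AML control) minus (LSK compound minus LSK control), on the log2 scale, called the difference below; a positive value means a stronger rise or a weaker fall in the leukemia cells. It uses 11 of the 18 arrays of the series. The leukemia cells (AML) were GFP-positive mouse acute myeloid leukemia cells carrying the fusion oncogene MLL-AF9, and the normal cells (LSK) were lineage-negative, Kit-positive, Sca1-positive marrow cells, a fraction that holds the hematopoietic stem cells and early progenitors. Per the labels, the sorted cells came from 4F mice, whose transgenes for Oct4, Sox2, Klf4 and c-Myc are switched on by doxycycline; no doxycycline is listed for the arrays used here, and controls and compound groups shared these alleles. The groups were AML control (3 arrays), AML compound (3 arrays), LSK control (3 arrays) and LSK compound (replicates 2 and 3 only). Compound cells were treated in vitro for 24 h, and the labels do not say whether the control cells were also kept in culture for that time. The titles number the arrays as biological repeats, but whether these were different mice or cultures is not recorded; the p-values below therefore speak only of the variation among these samples, part of which may be technical.

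The mix, called VC6T in the labels, held 4 agents. VPA inhibits histone deacetylases and so favours acetylated, open chromatin. CHIR inhibits GSK3, the kinase that marks beta-catenin for destruction, and so activates Wnt target genes in many cells. The agent 616452 inhibits the TGF-beta type I receptor, and TCP inhibits LSD1 (Kdm1a), a demethylase that works with the repressors Gfi1 and Gfi1b to hold down monocyte and lymphoid genes in blood progenitors. MLL-AF9 cells are stalled at a granulocyte-monocyte progenitor stage, and LSD1 inhibitors are known to release monocyte genes in them. LSK cells sense cytokines, interferons and bacterial products directly, through receptors that signal to NF-kB, STAT and IRF factors.

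LSK compound replicate 1 was left out as a failed array: its median over all probe sets was 3.24 and its SD 1.45, and with it in the fit 179 genes were called higher and 35 lower in AML in place of the 1286 and 1271 given below. On the 11 arrays used the medians lay between 2.65 and 2.73, arrays of a group correlated at r of 0.979 to 0.989, and arrays of different groups at 0.93 to 0.973. The number of arrays limits the precision, and the median standard error (SE) of the difference was 0.18. The labelled cell types showed in part. The leukemia marker Hoxa9, a homeobox gene kept on by MLL fusions, read 7.63 to 7.99 on AML arrays against 5.14 to 5.84 on LSK arrays. The progenitor receptor Flt3 read 2.42 to 3.64 on AML arrays against 7.35 to 7.44 in LSK control and 5.42 to 5.71 in LSK compound. Of the 8 AML markers, Csf1r was lower in AML control (3.49 to 3.96) than in LSK control (5.74 to 5.88). Itgam was slightly lower there as well (6.04 to 6.25 against 6.26 to 6.42). The other AML markers were higher in AML control than in LSK control. Of the 8 LSK markers, 6 were measured. Mecom, a stem cell factor among them, was higher in AML control (5.18 to 5.4) than in LSK control (4.41 to 4.8). The other measured LSK markers were higher in LSK control than in AML control.

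Sex-linked transcripts set the LSK compound arrays apart from their controls. Xist, the long RNA of X inactivation in females, read 9.28, 9.56 and 9.54 in LSK control and 7.35 and 7.32 in LSK compound, with 2.38 to 3.01 on the AML arrays. The Y-chromosome gene Eif2s3y read 5.47 and 5.2 in LSK compound and at most 2.64 on the other 9 arrays, Kdm5d 4.3 and 4.54 against at most 2.67, and Uty 5.03 and 5.13 against at most 2.53. LSK compound alone had Y-linked values above 4. AML compound lay slightly above AML control for these 3 genes (at least 2.34, 2.46 and 2.21 against at most 2.13, 2.27 and 2). It also lay above LSK control (at most 2.02, 1.98 and 1.78). The AML rises of 0.46, 0.4 and 0.44 passed the limma threshold, beside rises of 3.56, 2.51 and 3.41 in LSK. Autosomal genes were called for the difference at 15.8% (2479 of 15739), X-linked genes at 14.2% (73 of 513) and Y-linked genes at 42.9% (3 of 7). In LSK this mismatch coincides with treatment, so its part in the LSK changes below cannot be told apart from that of the compounds, and it was not tested.

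**Figure D1:**
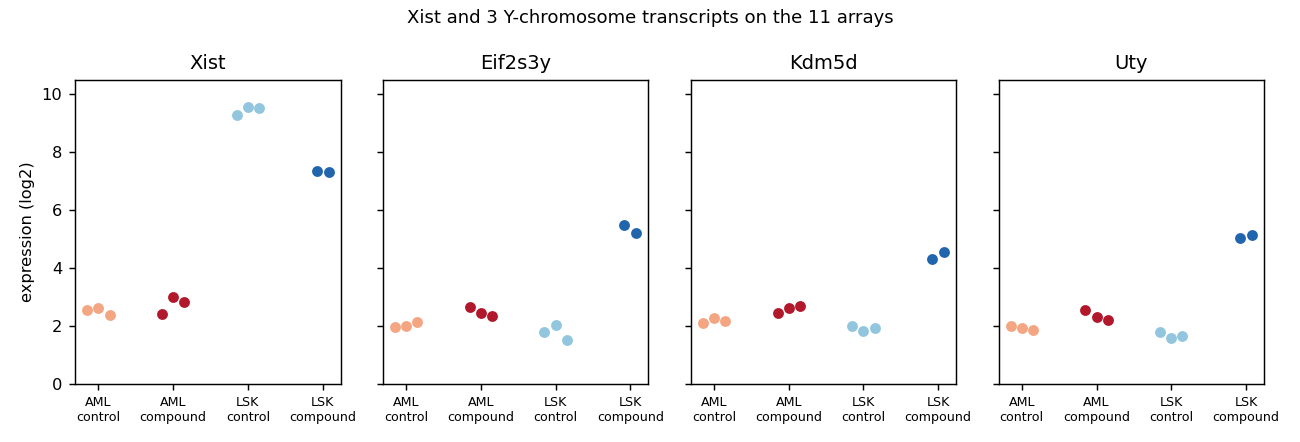
Log2 expression (vertical axis) of Xist and of the Y-chromosome genes Eif2s3y, Kdm5d and Uty on the 11 arrays, by group; each point is an array. LSK compound is the only group with Y-linked values above 4, and its Xist (7.35 and 7.32) lies below LSK control (9.28 to 9.56).

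The responses of the cell types differed at many genes and in both directions. Of 16383 genes tested with limma, 2557 (15.6%) passed an adjusted p of 0.05 for the difference, 1286 higher in AML (7.85%) and 1271 lower (7.76%); the median difference over all genes was 0.02. At least 2-fold differences were found for 1076 genes and at least 8-fold for 120, of which 25 were higher and 95 lower in AML. For the change within a cell type, 1987 of the 16383 genes rose and 2931 fell in AML, and 2255 rose and 3116 fell in LSK. Counts of list members that rose or fell, given below, stand beside these numbers. The AML and LSK changes share no array, and across all genes they correlated at r = 0.55, where genes are not independent replicates. Most called genes moved the same way in both cell types or could not be sorted. A total of 655 changed in the same direction, 518 of them more in LSK (287 up, 231 down) and 137 more in AML (118 up, 19 down). Another 1246 passed for the difference but met no class rule, for instance because the responding cell type changed by less than 2-fold.

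The remaining genes fell into 6 classes. A gene was placed in a class of AML alone when its AML change was at least 1 (2-fold) with an adjusted p under 0.05 while its LSK change was under 0.5 in size and did not pass; LSK-only classes mirror this, and opposite classes need changes of opposite sign, each at least 0.5 and each past the threshold. AML-only rises held 108 genes (0.659% of those tested) and AML-only falls 17 (0.104%). LSK-only rises held 311 (1.9%) and LSK-only falls 134 (0.818%). Genes that rose in AML and fell in LSK numbered 60 (0.366%), and genes that fell in AML and rose in LSK 26 (0.159%). A cell type without a call is not shown to be without any change. Its 95% interval lay within 2-fold for 108 of 108, 17 of 17, 308 of 311 and 134 of 134 genes in those 4 classes. The class limit of 0.5 largely sets these counts in advance, so they are no separate evidence of an absent change. The size limit is sharp: Mapk13 (0.9994) lay just outside the AML-only rises and Selplg (1.0109) just inside, and Setbp1 (0.9996) and Ankib1 (1.0082) stood likewise at the edge of the LSK-only rises. In bulk samples such as these, fewer cells of a type and less RNA per cell cannot be told apart.

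**Figure D2:**
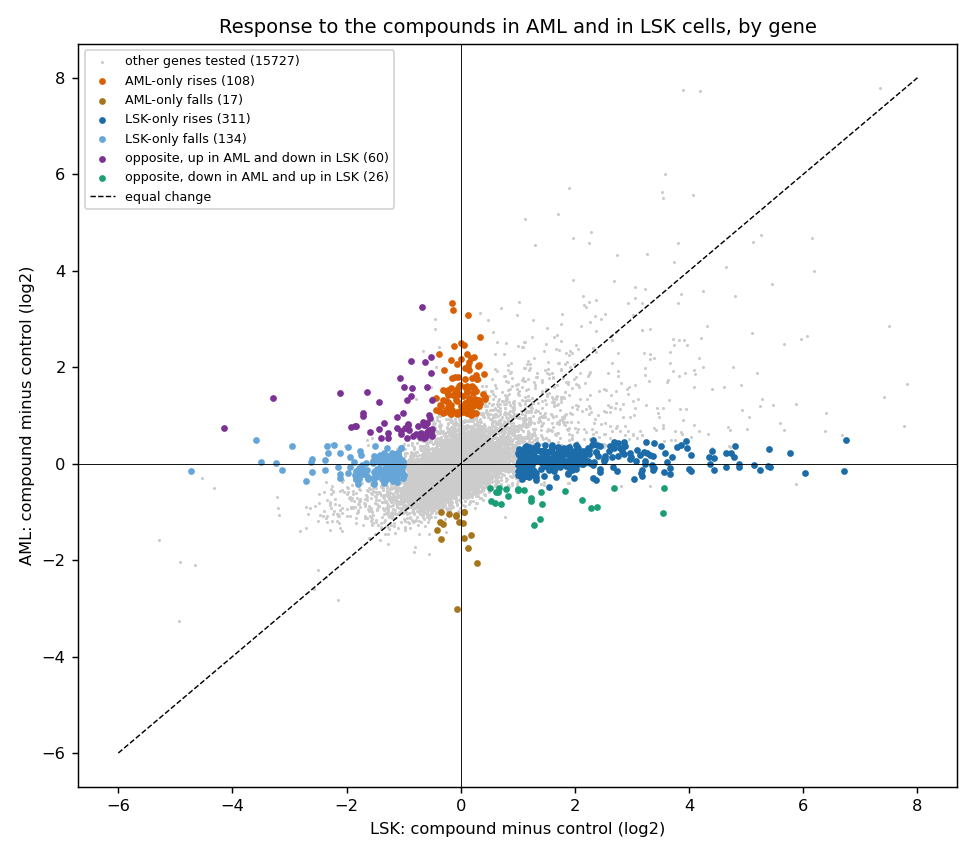
Change on compound treatment in AML cells (vertical axis, log2) against that in LSK cells (horizontal axis, log2) for the 16383 genes tested; colours mark the 6 classes, grey the other 15727 genes, and the dashed line equal change. The LSK-only rises form the longest arm, reaching an LSK change of 6.74, and the 25 genes at least 8-fold higher in AML are far fewer than the 95 lower.

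The LSK-only rises with the largest differences were Tnfrsf11b, Ifi205, Hamp, Trim30c and Tnfsf4. Tnfrsf11b (osteoprotegerin, a decoy receptor that blocks RANKL) read 9.32 and 9.46 in LSK compound and between 2.39 and 2.88 on all other arrays. The LSK arrays were thus far apart while the AML arrays overlapped, and the difference was -6.86 (SE 0.18, adjusted p = 1e-09). Hamp, which encodes the iron hormone hepcidin, read 7.58 and 7.99 in LSK compound and 1.49 to 1.94 elsewhere, with a difference of -6.22 (SE 0.18, adjusted p = 1e-09). All its AML and LSK control values were under the 40th percentile of their arrays. This size therefore depends on background signal and was -5.43 with such dim values raised to that level. Hamp also passed the expression filter through LSK compound alone. Tnfsf4, the OX40 ligand that costimulates T cells, read 8.41 and 8.42 in LSK compound against 2.88 to 3.14 in LSK control and 2.09 to 2.48 in AML (difference -5.48, SE 0.17, adjusted p = 1.28e-09). Trim30c, a member of a TRIM family with inflammasome regulators, read 8.16 and 8.37 against 2.35 to 2.6 in LSK control and 2.32 to 2.73 in AML (difference -5.53, SE 0.16, adjusted p = 1e-09). AML compound and control overlapped for Tnfrsf11b, Hamp and Tnfsf4 and lay slightly apart for Trim30c. Ifi205, an interferon-inducible gene of the DNA-sensing p200 family, read 8.93 and 9.39 against 2.1 to 2.57 in LSK control and 1.68 to 2.78 in AML, a difference of -6.25 (SE 0.35, adjusted p = 1.41e-07).

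The 311 LSK-only rises had low to moderate levels outside LSK compound. Their median level was 3.41 in LSK control, 5.81 in LSK compound, 2.94 in AML control and 2.98 in AML compound. In 40 of the 311 genes every AML array lay at or under the 40th percentile of its array, where a small AML change could go unseen. In 38 every LSK control array lay at or under that level, so the size of the LSK rise depends on background signal. The class was kept by 280 when such values were raised to that level. On the X or Y chromosome lay 11 of the 311, a share close to that of all genes tested (513 X-linked and 7 Y-linked of 16383).

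Interferon-stimulated genes, which encode antiviral effectors and the GTPases that attack intracellular parasites, rose in LSK for nearly all members. Of 20 tested, 17 differed, all lower in AML, and none was higher; 19 rose in LSK and 10 in AML. At an unadjusted limma p under 0.05 the counts were 18 lower and 0 higher. The median difference was -2.54 (all genes 0.02), from a median change of 0.48 in AML and 3.31 in LSK. By class, 8 were LSK-only rises and 9 rose in both cell types, more in LSK. The exceptions, named after their values were seen, were Mx1, Ifit3 and Usp18, with differences of -0.52, 0.26 and 0.46. Usp18 rose strongly in both cell types (4.19 in AML, 3.73 in LSK), so the weaker AML response was not shared by every member. Mx1 changed by 0.27 in AML and 0.79 in LSK, and Ifit3 by 0.08 and -0.18.

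Cxcl10, a chemokine that draws activated T cells, read 11.2 and 11.26 in LSK compound, 3.64, 3.28 and 3.35 in LSK control, 4.94, 4.62 and 4.48 in AML compound and 2.81, 3.03 and 3.26 in AML control. Compound and control did not overlap in either cell type, but the rise was 7.81 in LSK and 1.65 in AML, a difference of -6.16 (SE 0.22, adjusted p = 4.17e-09). Ifit1, which binds foreign RNA caps, read 9.19 and 9.41 in LSK compound and 4.28 to 4.39 in AML compound, from 3.96 to 4.21 and 2.95 to 3.4 in the controls (difference -4.04, SE 0.19). For the immunity GTPase Irgm1 the AML groups overlapped: it read 4.47 to 4.77 in AML control and 4.47 to 4.69 in AML compound, against 4.76 to 4.89 and then 8.12 and 8.26 in LSK (difference -3.43, SE 0.16, adjusted p = 2.83e-08). The guanylate-binding protein Gbp3 likewise stayed at 5.36 to 5.71 on the AML arrays and went from 3.86, 3.98 and 4.4 to 8.04 and 8.2 in LSK (difference -3.87, SE 0.2, adjusted p = 7.58e-08). LSK control lay below AML for Gbp3, and LSK compound above it.

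Promoter stretches are shown for genes of this group and for related genes, chosen because they hold a match to the letters below. Ifi205, Irgm2 and Nfkbia are not members of the interferon list. Among the leading LSK-only rises, no stretch with a match was found for Tnfrsf11b, Hamp, Trim30c or Tnfsf4. IRF and STAT complexes bind repeats of GAAA, so the letters GAAANNGAA (N, any base) were searched on both strands in the 250 bases before each RefSeq start on mouse GRCm38.p6; NF-kB binds kappa B sites, for which GGANTTTCC was searched. For 12692 of the 16383 genes 15824 promoters were found. Capitals below mark the matches, on either strand, and runs longer than 9 capitals are overlapping matches.
Ifit1 (chr19:34640740-34640853, plus strand): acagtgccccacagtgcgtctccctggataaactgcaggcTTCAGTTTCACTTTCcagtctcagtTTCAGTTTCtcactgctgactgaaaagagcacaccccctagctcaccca
Gbp3 (chr3:142559960-142560043, plus strand): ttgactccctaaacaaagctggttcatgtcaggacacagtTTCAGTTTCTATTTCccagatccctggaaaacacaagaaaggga
Ifi205 (chr1:174031841-174031929, minus strand): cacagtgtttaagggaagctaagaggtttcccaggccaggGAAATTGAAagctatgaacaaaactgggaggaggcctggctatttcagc
Irgm2 (chr11:58214873-58214961, plus strand): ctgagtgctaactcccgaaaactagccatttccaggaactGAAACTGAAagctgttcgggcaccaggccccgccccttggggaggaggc
Cxcl10 (chr5:92348999-92349139, minus strand): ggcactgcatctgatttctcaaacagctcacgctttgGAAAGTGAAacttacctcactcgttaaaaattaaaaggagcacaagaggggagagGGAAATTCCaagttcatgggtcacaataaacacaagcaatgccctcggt
Nfkbia (chr12:55492648-55492865, minus strand): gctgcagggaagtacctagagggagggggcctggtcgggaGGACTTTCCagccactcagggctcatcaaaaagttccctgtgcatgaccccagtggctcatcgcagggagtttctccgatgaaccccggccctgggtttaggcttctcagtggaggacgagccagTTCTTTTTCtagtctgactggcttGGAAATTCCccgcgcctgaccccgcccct
Ifit1 holds 3 IRF matches, of which 2 overlap, and Gbp3 2 that overlap, while Ifi205 and Irgm2 hold 1 each. Cxcl10 holds 1 IRF match and 1 kappa B match, and Nfkbia, the NF-kB inhibitor described below, holds 2 kappa B matches and 1 IRF match. The IRF letters were in 6.21% of all 15824 promoters, in 12 of 18 of the interferon list (66.7%) and in 36 of 287 of the LSK-only rises (12.5%). They were also in 9 of 104 of the AML-only rises (8.65%), 11 of 126 of the LSK-only falls (8.73%) and 5 of 67 of the genes up in AML and down in LSK (7.46%). The shares were lower in AML-only falls (1 of 20, 5.0%). The same held for genes down in AML and up in LSK, the class of Irgm2 (1 of 19, 5.26%). Promoters of genes that fell in LSK, such as Cd96, Klrb1f, Myl10, Chil3 and Tgfbi, held matches too and are not printed. The kappa B letters were in 1.23% of all promoters, in 4 of 11 of the chemokine list (36.4%), in 5 of 17 of the NF-kB list (29.4%) and in 2.09% of the LSK-only rises. A match is a description of the letters, not a bound site.

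Chemokines rose throughout in LSK and in part in AML. All 19 tested passed in LSK as rises, and 11 rose and 2 fell in AML; the difference was lower in AML for 14 and higher for 2, with a median of -1.51 (AML 1.02, LSK 4.06). Cxcl9, an interferon-gamma induced T cell attractant, read 8.04 and 8.27 in LSK compound against 2.1 to 2.39 in LSK control, while AML went from 2.65 to 3.2 down to 2.39 to 2.65 (difference -6.30, SE 0.21, adjusted p = 2.63e-09). Cxcl16, a membrane-bound chemokine and scavenger receptor, read 8.76 and 8.83 against 3.89 to 4.24 in LSK, and 3.71 to 4.08 against 3.53 to 3.61 in AML (difference -4.36, SE 0.17, adjusted p = 7.96e-09). The members higher in AML, named after their values were seen, were the myeloid chemokines Ccl6 (4.58 in AML, 2.24 in LSK, difference 2.33) and Ccl3 (5.56 and 4.06, difference 1.51). Cxcl3 rose by 7.79 in AML and 7.35 in LSK (difference 0.44, not called; also chosen after its value was seen), so the weaker AML response was not shared by every chemokine.

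Among 16 inflammatory cytokines and mediators, 9 were lower in AML, 1 was higher and the median difference was -1.93; 10 rose in LSK and 5 in AML. The pyrogenic cytokine Il1b read 11.06 and 10.95 in LSK compound against 2.92 to 3.69 in LSK control, and 2.92 to 3.02 in AML compound against 2.09 to 2.37 in AML control. Both rises passed, at 7.77 in LSK and 0.77 in AML, and the difference of -7.01 (SE 0.25, adjusted p = 3.89e-09) exceeded that of any gene in the LSK-only class. Il1a went from 2.58 to 3.38 up to 10.47 and 10.58 in LSK and from 1.96 to 2.36 up to 3.28 to 4.09 in AML (difference -6.03, SE 0.35). Il6 reached 8.52 and 8.41 in LSK and 2.36 to 3.16 in AML (difference -5.35, SE 0.28), and Ptgs2, the inducible cyclooxygenase, 11.32 and 11.3 in LSK and 6.1 to 6.3 in AML (difference -4.65, SE 0.18). AML cells thus had a clear Ptgs2 rise of 2.85 and little Il1b. Csf1, the macrophage growth factor, was the member higher in AML, at 0.72.

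For NF-kB subunits and the inhibitors that NF-kB induces as feedback, the difference had that direction too. By limma 15 of 16 were lower in AML and none higher (also 15 and 0 at an unadjusted p under 0.05). The median difference was -1.86 (AML 0.33, LSK 2.09). In LSK 15 rose and none fell, while in AML 6 rose and 3 fell. Traf1, an adaptor of TNF receptors, read 7.31 and 7.04 in LSK compound and between 2.45 and 3.14 in the other groups (difference -4.13, SE 0.22, adjusted p = 7.64e-08). Nfkbia, which holds NF-kB in the cytoplasm, rose by 2.62 in LSK (6.12, 6.35 and 6.48 to 8.97 and 8.89) and by 0.79 in AML (5.87 to 6.01 up to 6.62 to 6.8), a difference of -1.82 (SE 0.16). Tnfaip3 (A20), the ubiquitin-editing brake, rose by 3.55 in LSK and 0.73 in AML (difference -2.81, SE 0.26), and Tnip3, its binding partner, by 3.02 and 0.59 (difference -2.42). Relb was the member without a call (difference -0.32; chosen after its value was seen).

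Genes of antigen presentation shared this direction. Of 13 dendritic cell and MHC class II genes, 8 were lower in AML and none higher by limma (9 and 0 at an unadjusted p under 0.05; median difference -1.08). Ciita, the master activator of MHC class II, read 5.72 and 5.8 in LSK compound against 3.38 to 3.56 in LSK control and 2.93 to 3.46 in AML (difference -2.61, SE 0.18, adjusted p = 7.91e-07), and the class II chain H2-Eb1 rose by 2.09 in LSK against 0.2 in AML (difference -1.89). The lymph node homing receptor Ccr7 rose by 2.73 in LSK with -0.16 in AML (difference -2.88), and the costimulator Cd86 by 3.95 in LSK and 1.13 in AML (difference -2.81). The summed log2 level of the 14 measured markers was 57 to 57.9 in LSK control and 80 to 83.1 in LSK compound, against 47.8 to 48.4 and 54.5 to 54.7 in AML, and 12 markers of B cells summed to 31.3 to 32.2 and then 39.1 to 39.7 in LSK against 27.4 to 29.8 in AML. Of 8 tested B cell genes 4 were lower in AML, among them the adaptor Blnk (2.62, 2.54 and 2.76 to 4.86 and 4.89 in LSK, difference -2.18), while Cd79a and Cd79b, which every B cell carries, were not called (-0.01 and 0.02; chosen after their values were seen). T and NK cell markers moved the other way in sum, from 36 to 37.2 in LSK control to 33.7 to 34.4 in LSK compound. The part of other cell types in these values was not tested.

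**Figure D3:**
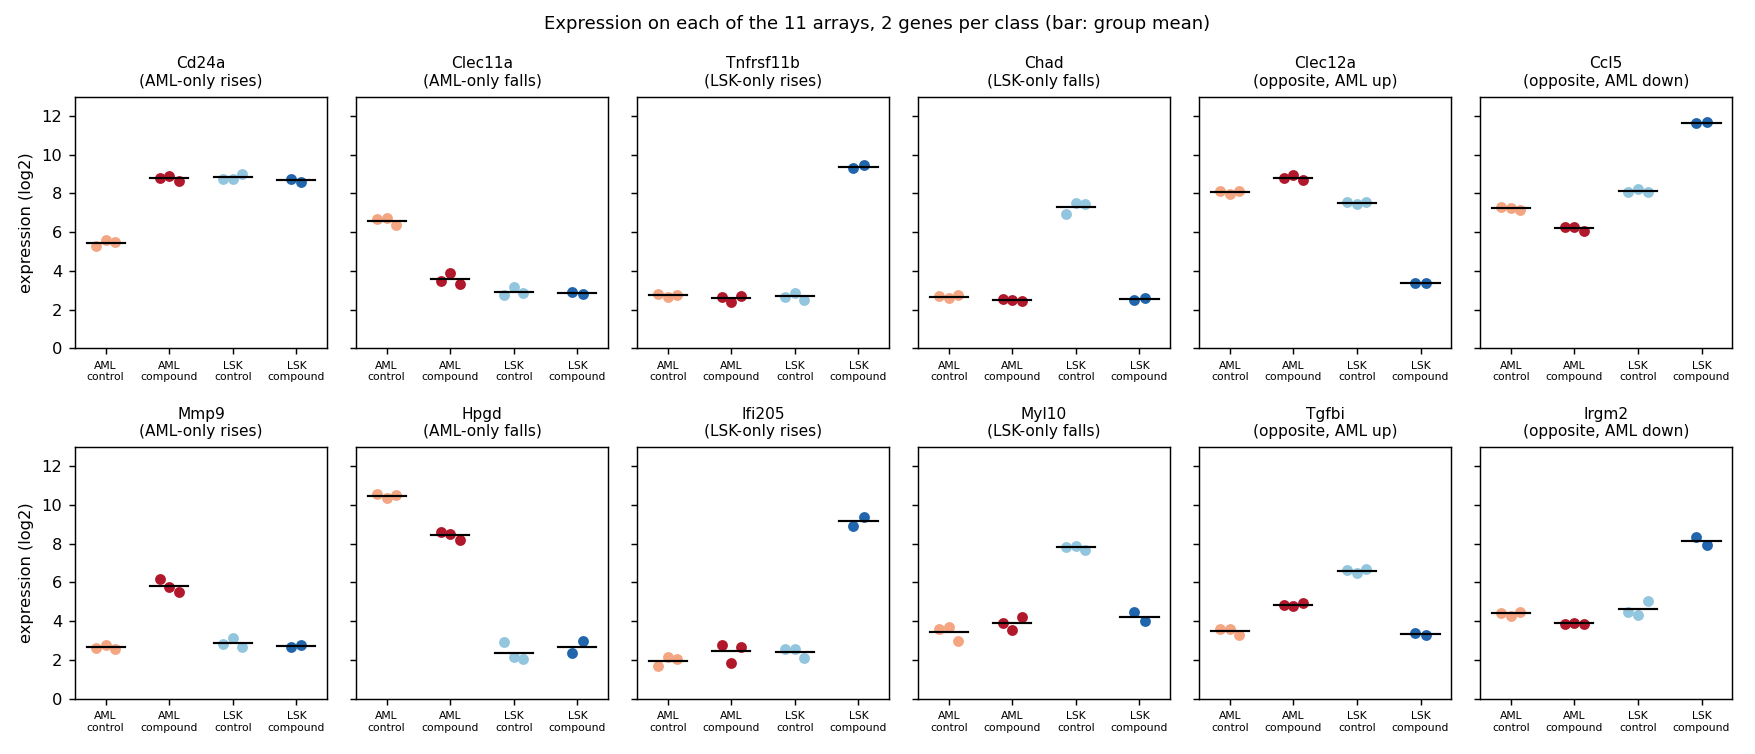
Log2 expression (vertical axis) on each of the 11 arrays for the pair of genes with the largest difference in each of the 6 classes (a column per class); points are arrays and bars group means. Tnfrsf11b and Ifi205 leave the level of about 2 to 3 only in LSK compound, and Clec12a and Ccl5 move in opposite directions in the cell types.

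The 60 genes that rose in AML and fell in LSK had medians of 0.80 in AML and -0.87 in LSK. The arrays of compound and control were apart in both cell types for 59. Such separation largely follows from the class rule, which was applied to these same arrays. Clec12a, an inhibitory lectin receptor of myeloid cells and a known surface antigen of AML, read 8.11, 7.96 and 8.11 in AML control and 8.8, 8.93 and 8.67 in AML compound, but fell from 7.56, 7.47 and 7.54 to 3.38 and 3.36 in LSK. The controls were close, and the compound groups differed by more than 5 log2 units on every array (difference 4.89, SE 0.14, adjusted p = 1e-09). Tgfbi, a secreted matrix protein induced by TGF-beta in many cells, rose from 3.31 to 3.6 up to 4.77 to 4.95 in AML and fell from 6.49 to 6.69 down to 3.37 and 3.28 in LSK (difference 4.65, SE 0.16, adjusted p = 2.63e-09). Its levels in AML and LSK cells changed order.

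Clec5a, a DAP12-coupled myeloid receptor, rose strongly in AML (4.29 to 4.57 up to 7.62 to 7.78) and fell weakly in LSK (5.6 to 5.86 down to 5.04 and 5.05; difference 3.92, SE 0.15, adjusted p = 7.05e-09). Gapt, a GRB2-binding adaptor, rose by 1.46 in AML and fell by 2.11 in LSK (difference 3.56), and Tmem273, an uncharacterised membrane protein, rose by 1.48 and fell by 1.64 (difference 3.12). F2r, the thrombin receptor PAR1, rose from 3.8 to 4.28 up to 6.16 to 6.28 in AML and fell from 9.53 to 9.78 down to 8.71 and 8.86 in LSK (difference 3.0, SE 0.19), so it stayed higher in LSK throughout. Cdkn2c, the cyclin-dependent kinase inhibitor p18, belonged to this class as well (2.81, 3.34 and 3.32 to 4.14, 4.79 and 4.33 in AML, 4.51, 4.32 and 4.48 to 3.34 and 2.66 in LSK; difference 2.70, SE 0.31, adjusted p = 5.71e-05). It was 1 of 3 among 7 CDK inhibitors that were higher in AML, with none lower (also 3 and 0 at an unadjusted limma p under 0.05). Of all genes, 7.85% were higher and 7.76% lower. Cdkn1c and Cdkn2d had smaller differences (0.88 and 0.75), and 4 of the 7 were not called.

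The 26 genes that fell in AML and rose in LSK had medians of -0.63 and 1.17. Compound and control arrays were apart in both cell types for all 26, which again largely follows from the class rule. Ccl5 (RANTES), a chemokine for T cells and monocytes, fell from 7.32, 7.23 and 7.16 to 6.27, 6.28 and 6.06 in AML and rose from 8.07, 8.21 and 8.07 to 11.64 and 11.67 in LSK (difference -4.57, SE 0.14, adjusted p = 1.38e-09). Irgm2, an interferon-induced GTPase whose promoter is printed above, read 4.29 to 4.46 and then 3.86 to 3.93 in AML, against 4.3 to 5.02 and then 8.36 and 7.96 in LSK (difference -4.07, SE 0.25, adjusted p = 2.48e-07). Its AML fall was small (-0.51, adjusted p = 0.0337). Gadd45b, a stress gene induced by NF-kB, fell by 0.89 in AML and rose by 2.39 in LSK (difference -3.28, SE 0.15), and Il1rl2, the receptor for IL-36 cytokines, fell by 0.93 and rose by 2.28 (difference -3.21).

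The nuclear receptor Nr4a1, an immediate early gene, fell by 0.50 in AML (3.62 to 4.07 down to 3.25 to 3.56) and rose by 2.69 in LSK (3.86 to 4.09 up to 6.41 and 6.85; difference -3.19, SE 0.22). Tapbpl, a tapasin-related peptide editor of MHC class I, fell by 0.75 and rose by 2.13 (difference -2.88). Immediate early and AP-1 genes did not share a direction: of 17, 2 were higher and 6 lower in AML (median -0.07), beside 7.85% and 7.76% of all genes. Fos, an AP-1 subunit, was an AML-only rise, from 2.47, 2.78 and 2.69 to 5.22, 5.31 and 4.81, with 2.96 to 3.26 and then 3.43 and 2.91 in LSK (difference 2.41, SE 0.24, adjusted p = 2.07e-05). Atf3, another bZIP factor, rose in both, by 0.52 in AML and 2.95 in LSK (difference -2.43).

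The AML-only rises with the largest differences were Cd24a, Mmp9, Hacd4, Mgll and Lyz2. Cd24a, a glycoprotein of neutrophils and progenitors, went from 5.28, 5.57 and 5.5 to 8.82, 8.89 and 8.64 in AML and stayed at 8.74, 8.74 and 9.01 and then 8.75 and 8.61 in LSK (difference 3.49, SE 0.17, adjusted p = 5.15e-08). AML control alone was low, and after treatment the AML values lay in the LSK range. Lyz2, lysozyme of granulocytes and macrophages, rose from 6.61, 6.82 and 6.91 to 9.23, 9.25 and 9.16 in AML, with 8.35 to 8.54 and then 8.43 and 8.24 in LSK (difference 2.56, SE 0.15, adjusted p = 2.48e-07). For both genes the cell type without a call was already high, with LSK intervals of -0.44 to 0.13 for Cd24a and -0.37 to 0.13 for Lyz2.

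Mmp9, the gelatinase of neutrophil tertiary granules, showed the other form, with a low level that left the baseline only in AML compound. It read 6.16, 5.79 and 5.51 there and 2.54 to 3.14 in the other groups (difference 3.32, SE 0.24, adjusted p = 1.2e-06). Mgll, the lipase that ends endocannabinoid signalling, read 5.18, 5.94 and 4.93 against 2.7 to 3.17 elsewhere (difference 2.66, SE 0.29, adjusted p = 4.17e-05). Hacd4, an enzyme of fatty acid elongation, rose from 3.49 to 3.57 up to 6.43 to 6.75 in AML with 4.65 to 4.96 in LSK (difference 2.95, SE 0.16, adjusted p = 7.58e-08). Of the 108 genes, 104 had LSK values over the dim level on at least 1 array, and 103 kept the class with dim values raised to that level.

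AML-only falls were few. Clec11a, a growth factor for blood progenitors and bone, fell from 6.68, 6.71 and 6.36 to 3.5, 3.87 and 3.33 in AML and read 2.73 to 3.15 in LSK (difference -2.95, SE 0.23, adjusted p = 2.27e-06). Hpgd, which degrades prostaglandins, fell from 10.58, 10.35 and 10.54 to 8.61, 8.5 and 8.19, with 2.06 to 2.99 in LSK (difference -2.35, SE 0.34). Plekhh2, a cytoskeletal protein, fell by 1.74 from 5.67 to 6.02, with every LSK value (2.01 to 2.34) under the dim level (difference -1.87). LSK levels of these 3 genes were low before treatment. Dock9, a Cdc42 activator, and the transporter Slc49a4 were measured in both: Dock9 fell by 1.49 in AML with 4.52 to 4.83 in LSK (difference -1.65, SE 0.21), and Slc49a4 by 1.23 with 5.2 to 5.58 in LSK (difference -1.27, SE 0.17).

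Monocyte and macrophage genes were more often higher than lower in AML. Of 24 tested, 13 were higher in AML and 3 lower, and the median difference was 0.71. In AML 18 rose, and in LSK 9 rose and 3 fell, with medians of 1.32 and 0.00. Of all 16383 genes, 1987 rose in AML, and 2255 rose and 3116 fell in LSK. Gpnmb, a glycoprotein of lysosome-rich macrophages, went from 2.61, 2.89 and 3.14 to 8.67, 8.62 and 8.5 in AML and from 6.08, 6.31 and 6.05 to 8.03 and 8.05 in LSK (difference 3.83, SE 0.19, adjusted p = 5.38e-08). Vcan, a matrix proteoglycan of monocytes, rose from 2.79 to 3.15 up to 7.92 to 8.22 in AML and from 2.49 to 2.9 up to 3.71 and 3.87 in LSK (difference 3.95, SE 0.2). Ccr2, the receptor that brings monocytes out of marrow, had opposite responses: 4.99 to 5.18 and then 5.8 to 5.94 in AML, and 6.09 to 6.2 and then 4.4 and 4.09 in LSK (difference 2.68, SE 0.15, adjusted p = 1.62e-07). The 3 members lower in AML, named after their values were seen, were the scavenger receptor Marco (-1.66), the endotoxin coreceptor Cd14 (-1.33) and Adgre1, which encodes F4/80 (-0.67), and all 3 rose in both cell types. The summed level of the 24 measured markers was 89 to 92.1 in AML control, 129 to 134 in AML compound, 105 to 106 in LSK control and 120 to 121 in LSK compound.

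Genes that LSD1 and Gfi1 hold down were mixed: of 12, 4 were higher in AML, 3 lower and 5 not called, with medians of 1.10 in AML and 0.19 in LSK. Itgam (CD11b), the myeloid integrin often used to read out LSD1 inhibition, rose from 6.25, 6.04 and 6.25 to 9.34, 9.35 and 9.24 in AML and by only 0.33 in LSK (6.26 to 6.42 up to 6.65 and 6.64; difference 2.80, SE 0.14, adjusted p = 5.14e-08). Csf1r, the receptor for macrophage growth factor, rose by 2.79 in AML (3.49 to 3.96 up to 6.28 to 6.72) and fell by 0.46 in LSK (5.74 to 5.88 down to 5.4 and 5.29; difference 3.25, SE 0.2). Irf8, the monocyte lineage factor, rose by 1.98 in AML with 0.08 in LSK (difference 1.90, SE 0.17, adjusted p = 5.99e-06). Gfi1 itself moved the other way, rising by 1.07 in AML and by 2.55 in LSK (7.19 to 7.46 up to 8.39 to 8.44, and 4.74 to 4.96 up to 7.31 and 7.51; difference -1.48, SE 0.15).

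The LSK-only falls with the largest differences were Chad, Myl10, Cd96, Klrb1f and Ngp. Chad (chondroadherin, a matrix protein) fell from 6.94, 7.49 and 7.46 to 2.51 and 2.61 in LSK, with 2.46 to 2.75 in AML (difference 4.58, SE 0.2, adjusted p = 2.05e-08). Myl10, a myosin light chain, fell from 7.69 to 7.89 down to 4.45 and 3.99, with 2.98 to 4.23 in AML (difference 4.07, SE 0.31). Cd96, an adhesion receptor of NK cells, T cells and some stem cells, fell from 6.03, 6.05 and 6.12 to 2.38 and 2.76, and every AML value (1.9 to 2.25) was dim (difference 3.53, SE 0.2). Klrb1f, an NK receptor gene, read 5.28 to 5.48 in AML, where no change was detectable (interval -0.29 to 0.30), while LSK went from 6.25 to 6.35 down to 3.35 and 2.73 (difference 3.25, SE 0.2, adjusted p = 3.07e-07). In the 134 genes of the class the median LSK level went from 5.55 to 3.99 while AML stood at 4.40 and 4.31.

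Granule genes of neutrophil precursors fell in LSK. Of 7 primary granule genes 6 fell in each cell type, and 6 were higher in AML with the larger falls in LSK; the medians were -0.83 in AML and -4.33 in LSK, with a median difference of 1.66. Elane (neutrophil elastase) read 9.55, 9.69 and 9.64 and then 9.1, 9.18 and 9.05 in AML, against 9.4, 9.26 and 9.4 and then 4.92 and 5.13 in LSK. The controls were nearly level and the compound groups far apart (difference 3.81, SE 0.14, adjusted p = 4.57e-09). Prtn3, the related proteinase 3, stayed at 10.11 to 10.31 in AML and fell from 9.24 to 9.41 down to 7.56 and 7.62 in LSK (difference 1.66, SE 0.13). Ms4a3, a membrane protein of granulocyte-monocyte progenitors, fell by 2.03 in AML and 4.92 in LSK (difference 2.89, SE 0.15), and cathepsin G (Ctsg) by 2.10 and 4.66 (difference 2.55, SE 0.2).

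Secondary granule and late neutrophil genes gave 10 of 13 higher in AML and none lower by limma (also 10 and 0 at an unadjusted p under 0.05), with a median difference of 1.91 from medians of 0.04 in AML and -1.54 in LSK. Chil3, a chitinase-like lectin, fell from 8.09, 8.14 and 7.91 to 3.38 and 3.63 in LSK and was dim on all AML arrays (1.64 to 2.07; difference 4.24, SE 0.16). Ngp fell from 7.55, 7.77 and 7.88 to 4.73 and 4.46 in LSK with 2.82 to 3.28 in AML (difference 3.0, SE 0.2, adjusted p = 5.69e-07), and the antimicrobial peptide Camp from 4.82 to 4.98 down to 2.09 and 2.45 with 1.78 to 2.16 in AML (difference 2.43). LSK-only falls made up 5 of the 13, and Chil3 and Camp were dim in AML before treatment. The summed level of the 15 measured genes went from 74.8 to 77.4 down to 58.5 to 58.6 in LSK and from 43.2 to 44.4 up to 51.5 to 52.3 in AML. The AML sum does not describe a rise of the list: 3 of the 13 tested rose in AML and 2 fell. The largest AML rises were those of Mmp8 (5.64, with 3.52 in LSK) and Mmp9 (3.18). In AML control 6 of the 15 were dim on every array.

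**Figure D4:**
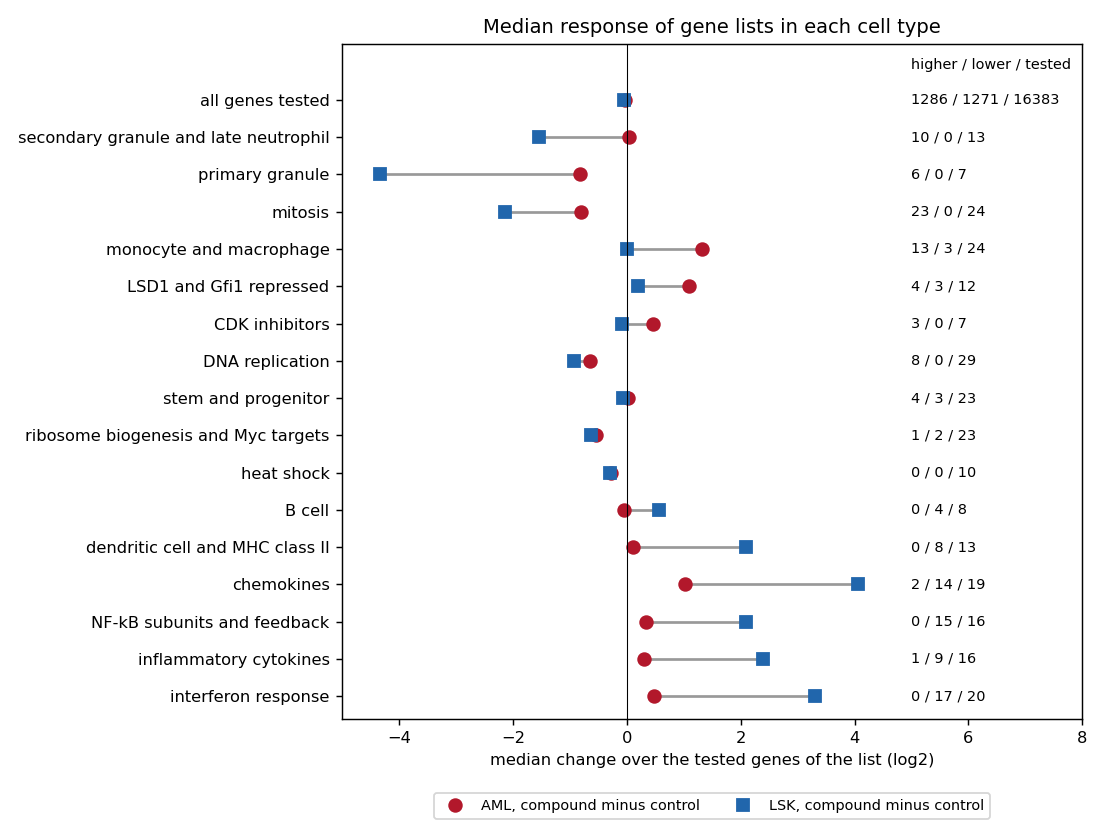
Median log2 change on compound treatment in AML (circles) and LSK (squares) over the tested genes of 16 lists and over all genes, with the number of genes higher in AML, lower in AML and tested at the right. Immune and inflammatory lists have the LSK square far to the right of the AML circle, and granule and mitosis lists have it far to the left.

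Genes of mitosis fell in both cell types and fell further in LSK. Of 24, 23 fell in AML and 24 in LSK, and 23 were higher in AML with none lower by limma (also 23 and 0 at an unadjusted p under 0.05); the median change was -0.81 in AML and -2.14 in LSK, and the median difference 1.21. Kif23, a kinesin of cytokinesis, fell from 7.03, 7.19 and 7.01 to 6.24, 6.26 and 5.99 in AML and from 7.52, 7.56 and 7.58 to 4.24 and 4.45 in LSK (difference 2.30, SE 0.16, adjusted p = 6.08e-07). Mki67, the proliferation marker Ki-67, fell by 0.54 in AML and 2.09 in LSK from almost equal control levels (9.69 to 9.84 and 9.71 to 9.72; difference 1.55, SE 0.14). Nuf2, a kinetochore protein, fell by 0.58 and 2.24 (difference 1.66), and the mitotic kinase Plk1 by 1.18 and 2.50 (difference 1.33, SE 0.13). DNA replication genes also fell in both (25 of 29 in AML, 28 in LSK), and 8 of 29 differed, all higher in AML (7.85% of all genes were), with a median difference of 0.24. Thymidine kinase Tk1, the first of these by p, fell by 0.89 in AML and 1.93 in LSK (difference 1.05).

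Growth-related ribosome biogenesis genes fell about as far in both cell types: 21 of 23 fell in AML and 20 in LSK, while 1 was higher, 2 were lower and 20 were not called (median difference 0.10). Myc, their activator, fell by 0.92 in AML and 0.81 in LSK (difference -0.10, adjusted p = 0.729). The Pou5f1 and Sox2 probe sets stayed low (2.38 to 3.18 over all 11 arrays), with differences of 0.00 and -0.17 that were not called. Klf4 rose by 1.07 in LSK with 0.17 in AML (difference -0.90, SE 0.18, adjusted p = 0.00462). Of 18 pluripotency genes 2 were higher in AML and 2 lower, not far from the shares of all genes (7.85% and 7.76%). The lower one with the smallest limma p was Tdgf1 (Cripto), a Nodal coreceptor, at 5.26 and 5.48 in LSK compound and 1.89 to 2.27 elsewhere (difference -3.37, SE 0.15, adjusted p = 2.83e-08).

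Genes tied to the compounds were called in both directions, beside 15.6% of all genes. Of 18 genes for the targets themselves (histone deacetylases, GSK3, TGF-beta receptors, LSD1 and partners), 1 differed: Hdac9 rose in AML from 2.55, 2.62 and 2.87 to 3.58, 4.1 and 3.93 with a change of -0.35 in LSK (difference 1.54, SE 0.22, adjusted p = 0.000328). Of 18 Wnt and beta-catenin targets 2 were higher and 1 lower, and Axin2, a direct target, gave 0.09 in AML and 0.20 in LSK (not called; chosen after its value was seen). Cyclin D1 (Ccnd1) rose by 0.53 in AML and fell by 0.65 in LSK (difference 1.18, SE 0.21), and the adhesion receptor Cd44 rose by 0.98 in AML with -0.04 in LSK (difference 1.02). Of 16 TGF-beta targets 2 were higher, Tgfbi foremost, and 3 lower. Among 7 genes known to answer histone deacetylase inhibitors, 3 were higher and 2 lower: Gsn (gelsolin) was an AML-only rise (4.82 to 5.06 up to 6.58 to 6.81, difference 1.85), and the metallothionein Mt2 rose in both but more in LSK (1.70 and 3.62, difference -1.92).

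Cell identity and survival genes were mixed. For scale, 7.85% of all genes tested were higher in AML and 7.76% lower, and some of the counts below lie near these shares. Of 23 stem and progenitor genes 4 were higher in AML and 3 lower: Procr (EPCR, a stem cell receptor) rose by 0.74 in AML and 2.72 in LSK (3.61, 3.91 and 3.86 to 6.24 and 6.8; difference -1.99, SE 0.21), Slamf1 (CD150) rose only in LSK (difference -1.85), and Cd34 rose by 0.37 in AML and fell by 0.72 in LSK (difference 1.08, SE 0.12). Of 14 MLL-AF9 program genes 2 were higher and 2 lower; Mef2c, a transcription factor of this leukemia, rose by 1.48 in AML with -0.25 in LSK (difference 1.73, SE 0.18). Anti-apoptotic genes gave 2 higher and 5 lower of 10, led by Cflar (c-FLIP, the inhibitor of caspase 8), which fell by 0.39 in AML and rose by 1.46 in LSK (difference -1.85, SE 0.13, adjusted p = 7.91e-07). Pro-apoptotic genes gave none higher and 4 lower of 12 (also 0 and 4 at an unadjusted limma p under 0.05), with Apaf1, the apoptosome scaffold, first (-0.16 in AML, 0.90 in LSK, difference -1.06). None of 10 heat shock genes differed by limma at an adjusted p of 0.05, and 0 had an unadjusted p under 0.05. Cd274 (PD-L1), an inhibitory ligand, rose in both, from 4.79 to 5.09 up to 6.81 to 6.97 in AML and from 5.6 to 5.96 up to 10.52 and 10.63 in LSK (difference -2.76, SE 0.18, adjusted p = 3.9e-07).

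**Figure D5:**
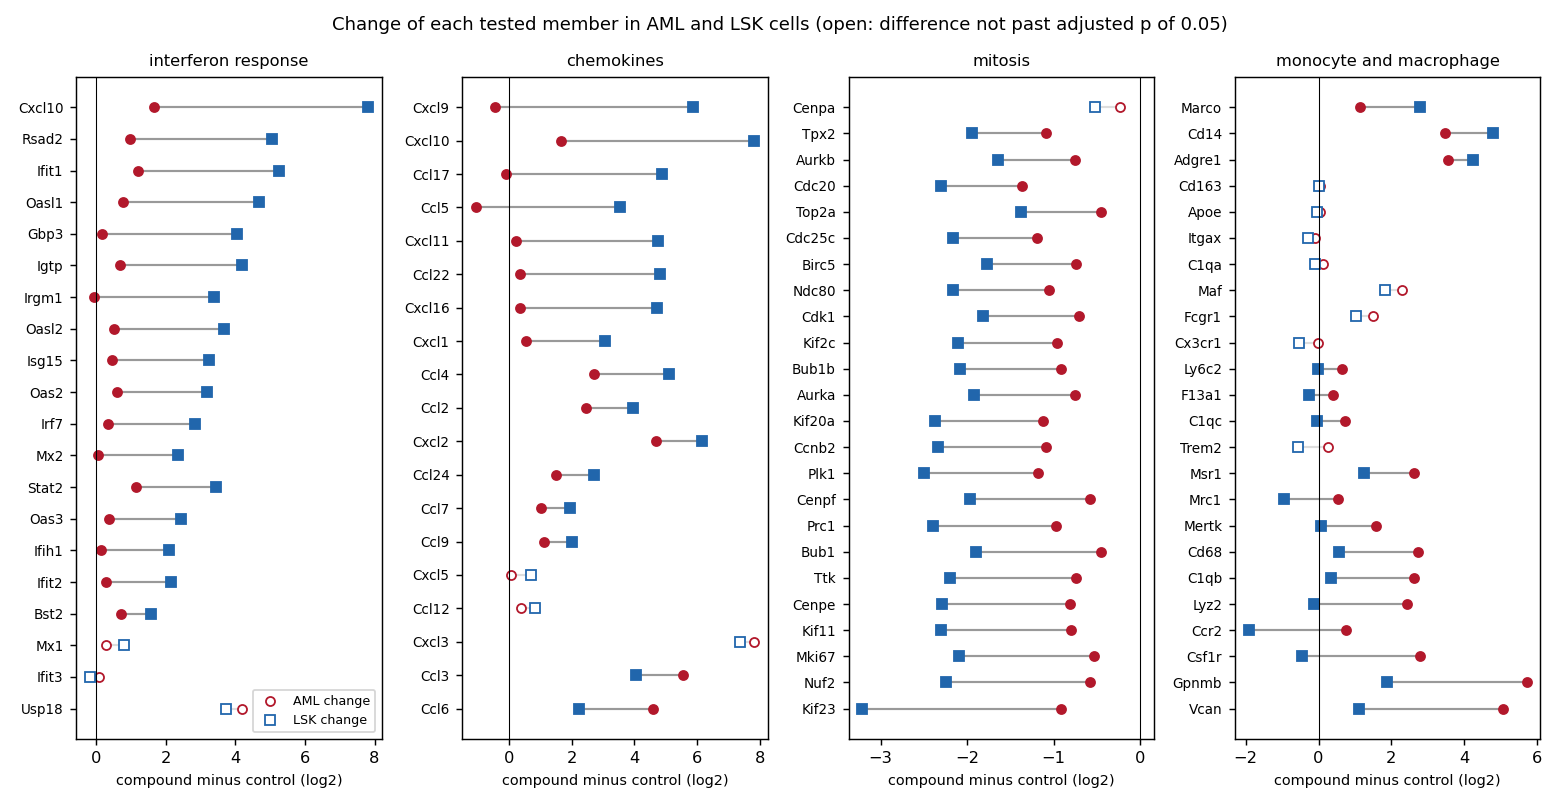
Log2 change on compound treatment (horizontal axis) in AML (circles) and LSK (squares) for each tested gene of the interferon, chemokine, mitosis, and monocyte and macrophage lists, ordered by the difference; open symbols mark genes whose difference did not pass an adjusted p of 0.05. Of the interferon genes 17 of 20, and of the mitosis genes 23 of 24, have filled symbols, each in a single direction, while the other lists hold genes on both sides.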

How the data were processed

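RNA was measured on 1-colour Affymetrix whole-transcript arrays. The table deposited by the authors holds log2 values per probe set after RMA, per the submitters' processing notes. Its RMA version and genome build are not stated in the sources read for this report. They were used as deposited. Of 41345 probe sets, 23521 named 1 gene, 1814 named several and were not used, and 16010 were not listed in the probe table; 23328 matched an Entrez ID of the RefSeq gene table. Each of 22180 genes was represented by its brightest probe set (highest mean on the 11 arrays). Genes above the 40th percentile of their array on at least 2 arrays were tested, which left 16383; values under that percentile are called dim.

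The difference was fitted in R 4.3.3 by limma 3.58.1 (a group-means model in lmFit, then eBayes; 7 residual and 4.94 prior degrees of freedom) with Benjamini-Hochberg adjustment over all 16383 genes for the difference and for each cell type's change, at a threshold of 0.05. The fit was tested on simulated data. Samples that share a replicate number did not deviate together (r from -0.06 to 0.1), so the numbers were not taken as pairs. The members, the classes and the 49 gene lists (762 entries; 628 genes tested) were chosen with earlier results of these data known, so lists are described by counts and medians with no test. Named genes are the 5 with the largest difference in each class of a single cell type and the 6 in each opposite class whose arrays did not overlap, and up to 4 members of a list by smallest p; predicted, small RNA and receptor segment genes and sex-linked transcripts were left out of these rankings. Pou5f1, Sox2, Klf4 and Myc were always allowed. The alternatives tried were the replicate block, each array left out, LSK compound replicate 1 put back, all groups in the fit, centring, quantile normalization, no filter or the 60th percentile, the mean of a gene's probe sets, dim values raised to the filter level, a variance trend, array weights and other class limits. Leaving out X- and Y-linked genes was added after the data were seen.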

Additional observations from a re-analysis of the deposited data

Results flagged for a closer look

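The following genes differed between the cell types in their response to the same treatment, by the interaction term of the limma fit; they lead the classes of the report, and each value is the AML minus LSK difference on the log2 scale. Among AML-only rises the values were 3.49 for Cd24a, 3.32 for Mmp9, 2.95 for Hacd4, 2.66 for Mgll and 2.56 for Lyz2. Among AML-only falls they were -2.95 for Clec11a, -2.35 for Hpgd, -1.87 for Plekhh2, -1.65 for Dock9 and -1.27 for Slc49a4. Among LSK-only rises they were -6.86 for Tnfrsf11b, -6.25 for Ifi205, -6.22 for Hamp, -5.53 for Trim30c and -5.48 for Tnfsf4, and among LSK-only falls 4.58 for Chad, 4.07 for Myl10, 3.53 for Cd96, 3.25 for Klrb1f and 3.0 for Ngp. Among genes up in AML and down in LSK they were 4.89 for Clec12a, 4.65 for Tgfbi, 3.92 for Clec5a, 3.56 for Gapt, 3.12 for Tmem273 and 3.0 for F2r. Among genes down in AML and up in LSK they were -4.57 for Ccl5, -4.07 for Irgm2, -3.28 for Gadd45b, -3.21 for Il1rl2, -3.19 for Nr4a1 and -2.88 for Tapbpl. Groups of 2 or 3 arrays are too small for a search for single outlying samples.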

How the results depend on the processing

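With LSK compound replicate 1 put back, 179 genes were higher in AML and 35 lower (83.6% higher, against 50.3% without it), and the classes held 45 AML-only rises, 3 AML-only falls, 25 LSK-only rises, 48 LSK-only falls, 18 genes up in AML and down in LSK, and 2 the other way. With it, limma called 0 of 20 interferon genes lower in AML (3 at an unadjusted p under 0.05; 17 to 18 in the other settings) and 6 of 24 mitosis genes higher (23 in the other settings). Sorted by adjusted p alone, those classes held 353, 220, 631, 442, 123 and 93 genes; with limits of 4-fold for a single cell type and 2-fold for opposite responses they held 18, 2, 114, 19, 8 and 3. Quantile normalization left 11 AML-only falls. All other settings stayed within 1.5 times of the counts in the report. Leaving out each of the 11 arrays in turn gave 951 to 1409 higher, 895 to 1267 lower, 92 to 125 AML-only rises, 13 to 21 AML-only falls, 266 to 340 LSK-only rises, 124 to 154 LSK-only falls, 55 to 66 up in AML and down in LSK, and 18 to 33 the other way; with 1 LSK compound array left, that array is assumed to vary like the other groups. The replicate block, whose numbers are not known to pair the samples, gave 1122 higher, 1108 lower, and classes of 116, 16, 325, 133, 58 and 23. Without X- and Y-linked genes the counts were 1258 higher, 1225 lower, 107, 16, 300, 133, 58 and 26. Of 734 values of the 32 leading genes under these settings, 718 kept their direction and call, 16 lost the call, all with LSK compound replicate 1, and 0 reversed. Sizes of differences between dim genes are limited by signal over background, and no depth is known.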

Other observations

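Some gene groups not described in the report are given here, beside 7.85% of all genes tested that were higher in AML and 7.76% that were lower. Integrins of leukocytes were split, with 3 of 11 higher in AML and 4 lower: Itga6, a laminin receptor, was higher (2.40), and the fibronectin receptor subunits Itga5 and Itga4 were lower (-1.64 and -1.33). Of 9 myeloid growth factor receptors 5 were higher in AML and 1, Il3ra, was lower (-0.59; named after its value was seen); the higher ones included Kit, the stem cell factor receptor, which rose in both cell types, by 1.54 in AML and 0.86 in LSK. Of 25 genes of the unfolded protein and ATF4 response 9 were lower in AML and 3 higher; Atf3 led them (-2.43), followed by the factor Cebpb (-1.36), which rose by 1.45 in LSK. Lipid handling genes included Cd36, a fatty acid receptor, which rose in both cell types and more in LSK (2.65 and 6.07, difference -3.42), and the lipase Lpl, which fell by 2.38 in LSK with 0.08 in AML (difference 2.46). Of 12 megakaryocyte and platelet genes 3 were higher and 2 lower, and they included a chemokine of platelets and myeloid cells, Ppbp, with one of the larger rises in both cell types (7.73 in AML, 4.19 in LSK, difference 3.54), and P-selectin (Selp), an LSK-only rise (-3.42). Hk2, the inducible hexokinase, and the glucose transporter Slc2a1 were lower in AML (-1.89 and -1.15), with 5 of 15 glycolysis and hypoxia genes lower by limma and 0 higher at an adjusted p of 0.05.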
